A study of Mus musculus with 8 samples.

Results

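The posterior side of the mouse *HoxA* cluster, from *Hoxa9* to *Hoxa13*, was examined for CpG methylation in differentiating embryonic stem cells with and without maternal SMCHD1. Members were chosen by a rule of position, with earlier results of these data known. They were the *Hox* table's CpG islands on chromosome 6 (GRCm38) that start at or beyond 52.22 Mb with a value in all libraries. Of the 8 islands listed there, 7 had values, out of 28 *Hox* islands with values and 7461 islands with values genome-wide. Reduced representation bisulfite sequencing (RRBS), which reads methylation at CpGs near the cut sites of the enzyme MspI, gave a percent methylation per island in 8 libraries. The groups were *Smchd1* wt at day 2, *Smchd1* wt at day 2.5, *Smchd1* matΔ at day 2 and *Smchd1* matΔ at day 2.5 of differentiation towards neuromesodermal progenitors (NMPs), the cells that give rise to spinal cord and paraxial mesoderm, with 2 male cell lines in each. The wt lines were *Smchd1*[fl/+] and carried an intact floxed maternal allele. The matΔ lines were *Smchd1*[del/+], in which Zp3-Cre, active in the growing oocyte, had deleted the maternal copy while the paternal copy stayed intact. No heterozygous lines from wt oocytes were among the libraries, so loss of maternal SMCHD1 and heterozygosity for *Smchd1* cannot be told apart here. Lines of both genotypes came from C57BL/6 mothers and Castaneus fathers, from separate blastocysts, and each line was sampled at both days, with Wnt signalling activated by CHIR99021 from day 2. The 2 lines of a genotype were the only replicates, both parental alleles were read together, and neither the deletion nor the cell identity can be checked from these methylation values.

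*Hox* genes encode homeodomain transcription factors that give cells their position along the body axis, and they are switched on one after another in the order in which they lie in the cluster. The posterior *HoxA* genes come last, and are known for patterning the caudal axis and the limbs. CpG islands are stretches rich in CpG that usually stay unmethylated, and silent *Hox* islands are held instead by the Polycomb complexes. SMCHD1 is a chromatin protein first known for silencing the inactive X chromosome, and the question put to these libraries was whether its loss from the oocyte alters methylation at the *Hox* islands later on.

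The 7 islands spanned 39.8 kb. From the anterior side they were the *Hoxa7*-*Hoxa9* island (chr6:52221353-52221915), the *Hoxa9* island (chr6:52225257-52226313), the internal *Hoxa10* island (chr6:52234023-52235088), the upstream *Hoxa10* island (chr6:52240324-52240829), the *Hoxa11* island (chr6:52244986-52246577), the *Hoxa11*-*Hoxa13* intergenic island (chr6:52252740-52254111) and the *Hoxa13* island (chr6:52259987-52261198). By GENCODE, the first covered an upstream start and 5′ untranslated exon of a *Hoxa7* transcript and no part of *Hoxa9*. The *Hoxa9*, internal *Hoxa10*, *Hoxa11* and *Hoxa13* islands all held coding sequence, with 577, 912, 709 and 784 coding bases respectively. The upstream *Hoxa10* island lay wholly in a 5′ untranslated exon of *Hoxa10*. The intergenic island overlapped no exon, and lay 6691 bp from the nearest *Hoxa13* start and 3349 bp from the noncoding gene 9530018H14Rik. The island without values (chr6:52229856-52230272) overlapped the microRNA gene *Mir196b*.

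The sequence that RRBS can sample is set by its CCGG sites, so a window of 200 bases is shown from the highest, the second highest and the lowest of the 7 islands by mean methylation. Each is the window with the most CCGG sites that avoids untranslated exons, read from the plus strand of GRCm38 in RefSeq, with CCGG in capitals. The letters CCGG read the same on both strands, and 89.3% of all 200-base windows tiled over the listed islands hold at least 1. The intergenic window is chr6:52253669-52253868, with 5 CCGG sites and 14 CpGs outside any exon. The *Hoxa9* window is chr6:52225306-52225505, with 3 CCGG sites and 10 CpGs in an intron. The *Hoxa13* window is chr6:52259987-52260186, with 4 CCGG sites and 23 CpGs, wholly in coding sequence.
Hoxa11-Hoxa13 intergenic: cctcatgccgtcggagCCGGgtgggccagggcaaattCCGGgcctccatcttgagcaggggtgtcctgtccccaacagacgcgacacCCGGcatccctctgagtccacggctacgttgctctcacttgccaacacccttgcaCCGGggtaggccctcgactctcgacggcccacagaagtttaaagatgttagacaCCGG
Hoxa9: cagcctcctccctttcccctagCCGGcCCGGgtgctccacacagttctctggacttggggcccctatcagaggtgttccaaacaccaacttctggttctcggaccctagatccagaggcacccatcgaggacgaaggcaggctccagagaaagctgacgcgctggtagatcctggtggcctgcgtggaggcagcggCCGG
Hoxa13: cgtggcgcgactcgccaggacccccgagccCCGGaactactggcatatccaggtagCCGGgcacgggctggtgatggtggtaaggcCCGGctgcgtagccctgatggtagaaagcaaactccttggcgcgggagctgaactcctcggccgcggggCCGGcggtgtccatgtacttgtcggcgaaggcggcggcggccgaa
Over their whole length the 3 islands held 14, 10 and 15 CCGG sites, so the highest and the lowest island differed by 1 site, while the *Hoxa13* island held 176 CpGs in 1212 bp and the intergenic island 96 in 1372 bp.

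Methylation was low throughout the posterior *HoxA* islands, but not at the same level in all of them. The intergenic island was the highest, at 7.23% ± 2.29 (SD over all 8 libraries), followed by the *Hoxa9* island at 5.76% ± 3.07. The upstream *Hoxa10* island (1.89% ± 1.64), the internal *Hoxa10* island (1.86% ± 1.88) and the *Hoxa11* island (1.68% ± 1.44) came next. The *Hoxa7*-*Hoxa9* island stood at 0.961% ± 1.09 and the *Hoxa13* island was the lowest, at 0.447% ± 0.324. None of the 6 steps between neighbours in this order exceeded the SD of its difference over the libraries. The intergenic island was above the *Hoxa9* island in 5 of 8 libraries, with a mean difference of 1.47 points and an SD of that difference of 4.29, and the *Hoxa9* island was above the upstream *Hoxa10* island in 7 of 8. Among the 5 lower islands, each exceeded the next in 4 of 8 libraries, so that neighbours in this order did not differ beyond their spread. The intergenic island exceeded the *Hoxa11* and internal *Hoxa10* islands in 8 of 8 libraries, and its range did not overlap that of the *Hoxa7*-*Hoxa9* or the *Hoxa13* island. The intergenic island was the highest of the 7 in 5 libraries and the *Hoxa9* island in the other 3.

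**Figure D1:**
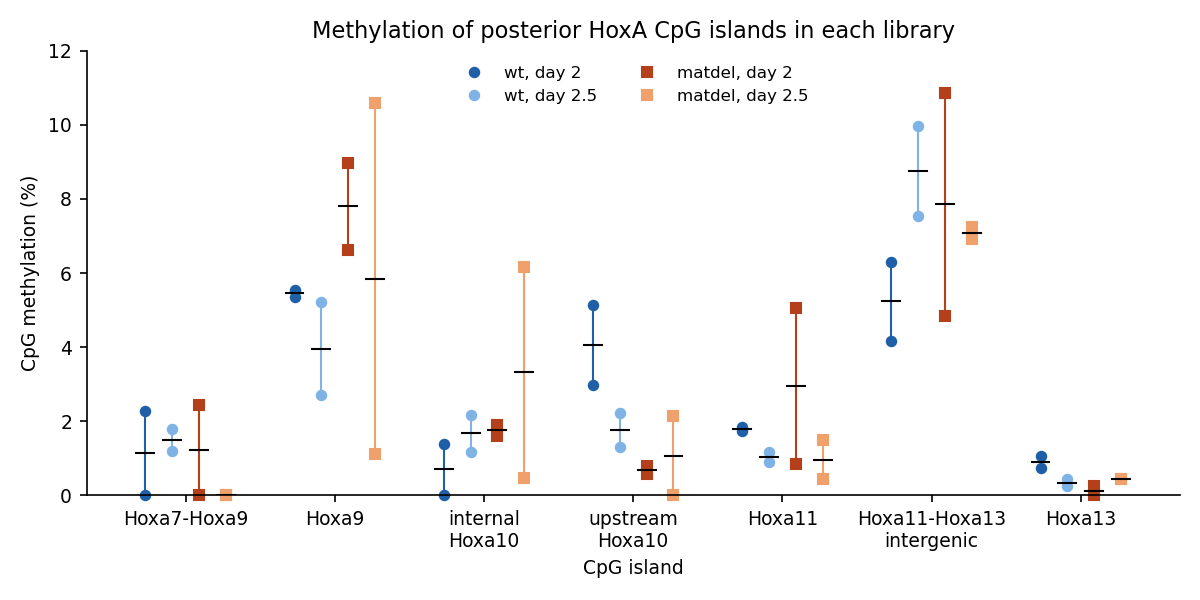
CpG methylation in percent (y axis) of the 7 posterior *HoxA* islands in anterior to posterior order (x axis). Each point is 1 library, circles are *Smchd1* wt and squares *Smchd1* matΔ (matdel), dark at day 2 and light at day 2.5. Vertical lines join the 2 lines of a group and black bars are their mean. The *Hoxa9* and intergenic islands lie highest, and the 2 lines of a group can lie far apart, as in the *Hoxa9* island of matΔ cells at day 2.5 (1.11% and 10.6%).

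Position in the cluster gave no steady gradient. The *Hoxa13* island, at the posterior end, lay at the level of the anterior islands, next to the intergenic island that was the highest of all 12 *HoxA* islands with values. The 5 anterior *HoxA* islands had means from 0.410% to 1.29%. The *Hoxa7*-*Hoxa9* island at 0.961% lay within that range, as did the *Hoxa13* island at 0.447%, and the other 5 posterior islands lay above it.

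**Figure D2:**
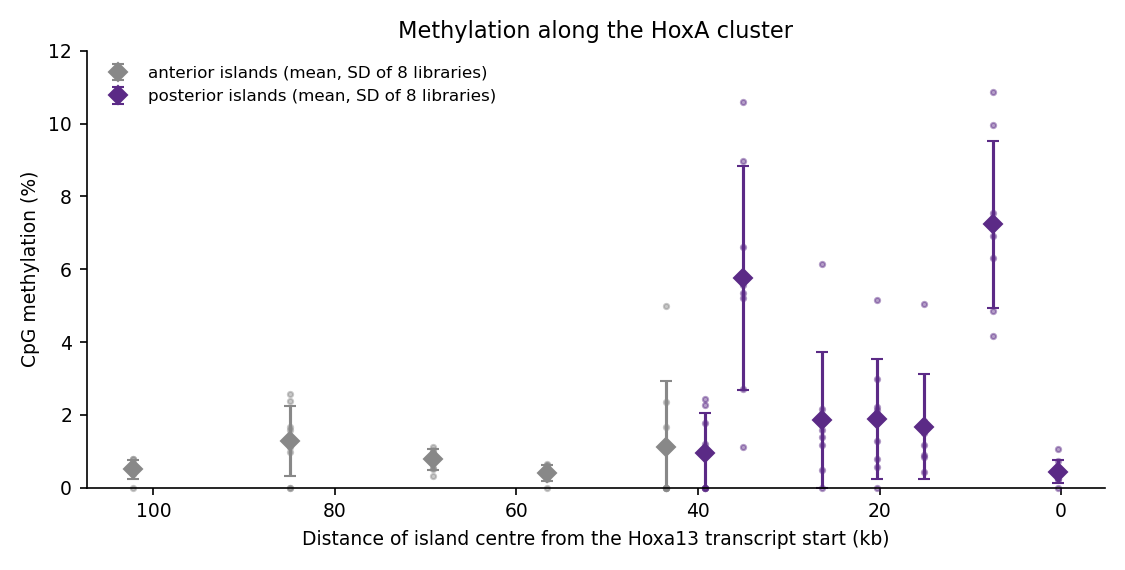
CpG methylation in percent (y axis) of the 12 *HoxA* islands against the distance in kb of the island centre from the *Hoxa13* transcript start (x axis, anterior to the left). Small dots are the 8 libraries, diamonds their mean and error bars the SD, grey for anterior and purple for posterior islands. The intergenic island (7.23%) and the *Hoxa9* island (5.76%) stand above neighbours with means under 2%.

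Averaged over the 7 islands, methylation was 2.52% and 2.98% in wt lines 1 and 2 at day 2, and 2.81% and 2.62% at day 2.5. In matΔ lines 1 and 2 the average was 2.78% and 3.61% at day 2, and 2.50% and 2.85% at day 2.5. The libraries of the genotypes overlapped at both days. The 2 highest islands held between 45.5% and 87.9% of the sum over the 7 in a library. In each of the 8 libraries the average was above that of the anterior *HoxA* islands, which ran from 0.227% to 1.61%, and above that of the 21 other *Hox* islands, which ran from 0.792% to 1.83%. The average of the 5 lower islands, without the intergenic and *Hoxa9* islands, was above the anterior *HoxA* average in 5 of 8 libraries and above that of the other *Hox* islands in 5 of 8. Those 2 were left out for their level in these same libraries, while the other sets kept their highest islands. These levels are a description with no test, since the islands are not replicates.

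Beside the other clusters, the posterior *HoxA* islands had the higher median, but not the higher mean in every group. The median of the island means was 1.86% for the 7, against 0.779% for the anterior *HoxA*, 0.798% for the *HoxB*, 0.597% for the *HoxC* and 0.889% for the *HoxD* islands, and 0.406% for all 7461 islands. Of the 7, 5 had a mean above 1%, compared with 8 of the 21 other *Hox* islands and 1243 of all islands. Genome-wide, 97.0% of islands had a lower mean than the intergenic island, 96.4% a lower mean than the *Hoxa9* island, and 56.2% a lower mean than the *Hoxa13* island. In wt cells at day 2 the average over islands was 3.22% ± 0.976 (SD, 2 lines) for *HoxB* and 2.87% ± 0.493 for paralogue groups 9 to 13 of the other clusters, against 2.75% ± 0.329 for the 7 posterior *HoxA* islands. The sets overlapped. The 6 islands of paralogue groups 9 to 13 in the other clusters ran from 0.172% to 7.53% with a median of 0.543%, and the top of that range was a *HoxB* island (chr11:96251536-96252033) named here after its value was seen. It lay 19424 bp from the nearest *Hoxb9* start, and with the intergenic and *Hoxa9* islands made up the 3 *Hox* islands above 5%.

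**Figure D3:**
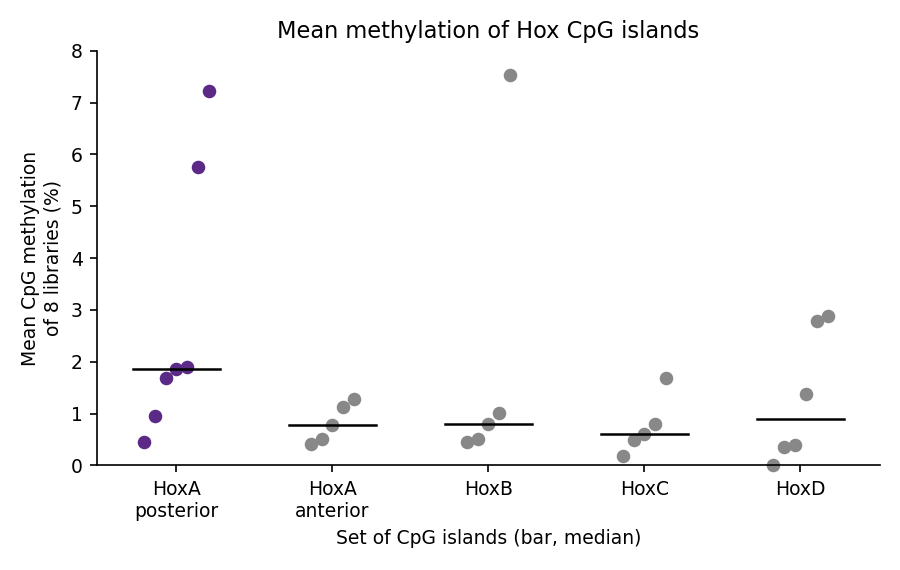
Mean CpG methylation over the 8 libraries in percent (y axis) of each *Hox* island with values, grouped by set (x axis, 7 posterior *HoxA*, 5 anterior *HoxA*, 5 *HoxB*, 5 *HoxC* and 6 *HoxD* islands). Points are islands and black bars the median of a set. The posterior *HoxA* median (1.86%) is above the other medians (0.597% to 0.889%), while 2 of its 7 islands lie within the range of the anterior *HoxA* islands.

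Values of exactly 0 were less frequent in these islands, at 7 of 56 values or 12.5%, than in the other *Hox* islands (31.0%) or in all islands (38.2%). Of these, 4 were in the *Hoxa7*-*Hoxa9* island. The read depth behind any value is unknown beyond a minimum of reads per island that the authors required in all libraries. No upper limit was computed for a 0. Across the 7 islands, mean methylation had a Pearson r of 0.30 with length, 0.25 with the number of CCGG sites and -0.42 with GC content, all read from the same 8 libraries. The signs for length and CCGG sites were not stable, with Spearman's rho of -0.04 and -0.07 over the 7. Over all 28 *Hox* islands the r was 0.02 with length, -0.23 with CCGG sites and -0.37 with GC content.

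The first comparison was of the genotypes at day 2. With limma fitted to the 7196 islands that varied, 0 islands passed an adjusted p of 0.05 (0.0% of islands tested), and 0 of the 7 posterior *HoxA* islands did. At an unadjusted p under 0.05 there were 2 of the 7, both lower in matΔ cells, against 4.21% of all islands tested. This became 1 of 7, the upstream *Hoxa10* island, with the line number as a block (*Hoxa13* island, limma unadjusted p = 0.0679, adjusted p = 0.973). It was also 1 with only the 4 libraries of the comparison (*Hoxa13* island, limma unadjusted p = 0.100, adjusted p = 0.754). Libraries of the genotypes did not overlap in 4 of the 7, against 24.8% of all islands tested. These were higher in matΔ cells for the *Hoxa9* and internal *Hoxa10* islands and lower for the upstream *Hoxa10* and *Hoxa13* islands. Ties at 0 count as overlap, and zeros were less frequent in the 7 islands (12.5% of values) than in all islands (38.2%). The part of such ties in this count was not tested.

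The largest fitted difference at day 2 was in the upstream *Hoxa10* island. *Hoxa10* is best known for its role in the lumbar spine and the uterus. This island was methylated at 2.98% and 5.15% in wt lines 1 and 2, and at 0.794% and 0.571% in matΔ lines 1 and 2. Both matΔ lines were below both wt lines (difference -3.38 points, SE 0.97, 95% CI -5.71 to -1.05, limma unadjusted p = 0.0116, adjusted p = 0.913). At day 2.5 the wt lines had 2.22% and 1.30% and the matΔ lines 2.14% and 0%, which overlapped (difference -0.69, 95% CI -3.02 to 1.65). The internal *Hoxa10* island, over a start inside *Hoxa10*, went the other way at day 2. It had 0% and 1.40% in the wt lines and 1.59% and 1.91% in the matΔ lines (difference 1.05, SE 1.70, 95% CI -3.02 to 5.13, limma adjusted p = 0.999). At day 2.5 this island had 2.17% and 1.17% in the wt lines, and the matΔ lines were the farther apart, at 6.15% in line 1 and 0.478% in line 2. The 6.15% was its highest value in any library.

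In the *Hoxa13* island, over the start of the most posterior gene of the cluster, which patterns the digits and the genital tract, the wt lines had 1.05% and 0.729% at day 2 and the matΔ lines 0% and 0.239%. All 4 values were near or below 1%, and the genotypes did not overlap (difference -0.77, SE 0.31, 95% CI -1.51 to -0.03, limma unadjusted p = 0.0436, adjusted p = 0.968). By day 2.5 the wt lines had 0.239% and 0.439% and both matΔ lines 0.439%, and the order was no longer there (difference 0.10, 95% CI -0.64 to 0.84). Its values took few levels, with 0.439% in 3 libraries and 0.239% in 2.

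The *Hoxa9* island covers a start of *Hoxa9*, a gene known for its role in blood progenitors and in leukaemia. It had 5.56% and 5.36% in wt lines 1 and 2 at day 2, and 8.97% and 6.62% in the matΔ lines. Both matΔ lines were the higher, but the interval of the difference was wide (difference 2.34, SE 2.92, 95% CI -4.69 to 9.37, limma adjusted p = 0.985). At day 2.5 the wt lines had 2.70% and 5.21%, and the matΔ lines 1.11% and 10.6%, which were the lowest and the highest value of this island. A gap of 9.47 points between lines of the same genotype and day was larger than any fitted difference in the 7 islands.

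The *Hoxa11*-*Hoxa13* intergenic island, the most methylated, had 6.31% and 4.16% in the wt lines and 4.85% and 10.9% in the matΔ lines at day 2, which overlapped (difference 2.62, SE 2.19, 95% CI -2.65 to 7.89, limma adjusted p = 0.968). The *Hoxa11* island, over the starts of *Hoxa11*, a gene of the forearm and kidney, and of its antisense transcript *Hoxa11os*, had 1.74% and 1.83% in the wt lines and 0.833% and 5.05% in the matΔ lines (difference 1.153, SE 1.27, 95% CI -1.89 to 4.20). In both islands matΔ line 2 held the highest value of all 8 libraries. The *Hoxa7*-*Hoxa9* island had 0% and 2.27% in the wt lines and 2.44% and 0% in the matΔ lines, so that each genotype had a line at 0 (difference 0.08, 95% CI -2.31 to 2.48).

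At day 2.5, after Wnt activation, the genotypes were compared again. Of the 7 islands, 0 passed by limma (0.0% of islands tested), and 0 had an unadjusted p under 0.05, against 4.29% of islands tested. With only the 4 libraries of the comparison there was 1, the *Hoxa7*-*Hoxa9* island (limma unadjusted p = 0.0230, adjusted p = 0.748). The genotypes did not overlap in 2, both lower in matΔ cells, against 25.4%. In the *Hoxa7*-*Hoxa9* island the wt lines had 1.19% and 1.79% and both matΔ lines were listed at 0% (difference -1.49, SE 1.00, 95% CI -3.88 to 0.90, limma adjusted p = 0.963). In the intergenic island the wt lines had 9.96% and 7.55% and the matΔ lines 7.25% and 6.92% (difference -1.67, SE 2.19, 95% CI -6.94 to 3.60, limma adjusted p = 0.994). In the *Hoxa11* island the wt lines had 1.17% and 0.909% and the matΔ lines 0.435% and 1.497% (difference -0.07, 95% CI -3.12 to 2.97). With both days together, 4 libraries against 4, the genotypes did not overlap in 0 of the 7 islands, against 2.08% of islands tested.

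**Figure D4:**
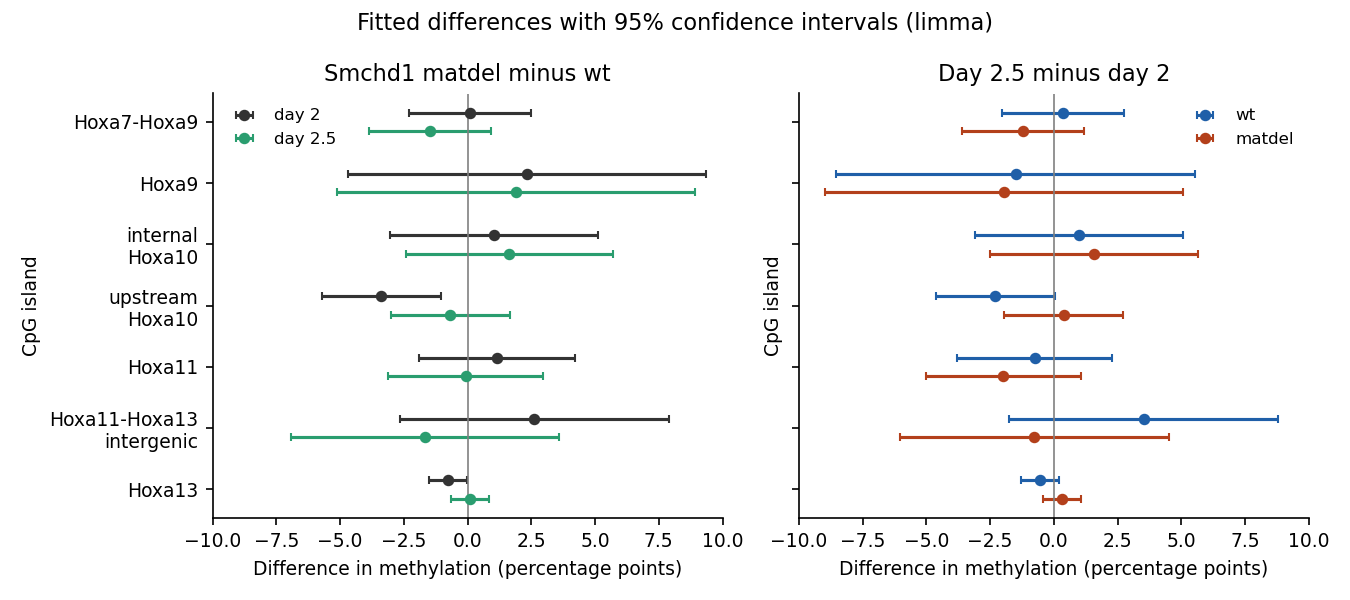
Fitted differences in CpG methylation in percentage points (x axis) for the 7 posterior *HoxA* islands (y axis), with 95% confidence intervals from limma, 2 lines per group. The left panel gives *Smchd1* matΔ (matdel) minus wt at day 2 and day 2.5, the right panel day 2.5 minus day 2 in wt and in matΔ cells. The interval excludes 0 without adjustment only for the upstream *Hoxa10* and the *Hoxa13* islands at day 2, and the *Hoxa9* intervals are the widest in both panels.

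Between the days, in wt cells, 0 of the 7 islands passed by limma (0.0% of islands tested), and 0 had an unadjusted p under 0.05, against 4.07%. With libraries scaled to 1 mean there was 1, the upstream *Hoxa10* island (limma unadjusted p = 0.0496, adjusted p = 0.949). The days did not overlap in 5 of the 7, against 24.9% of islands tested. The intergenic island was higher at day 2.5, and the *Hoxa9*, upstream *Hoxa10*, *Hoxa11* and *Hoxa13* islands were lower. Ties at 0, which count here as overlap, were less frequent in these islands than in all islands, and their part in this count was not tested. The change of the intergenic island was 3.65 points in wt line 1 and 3.39 in wt line 2 (difference 3.52, SE 2.19, 95% CI -1.75 to 8.79, limma adjusted p = 0.986). The upstream *Hoxa10* island changed by -0.76 and -3.85 points (difference -2.30, SE 0.97, 95% CI -4.64 to 0.03, limma unadjusted p = 0.0523, adjusted p = 0.986).

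In matΔ cells, 0 of the 7 passed between the days (0.0% of islands tested), and 0 had an unadjusted p under 0.05, against 4.41%. The days did not overlap in 1, the *Hoxa13* island, which was higher at day 2.5, against 24.4% of islands tested. The 2 matΔ lines often went opposite ways. The *Hoxa9* island changed by -7.86 points in line 1 and by 3.96 in line 2, and the intergenic island by 2.40 in line 1 and by -3.94 in line 2. Of the 7 islands, 1 changed in the same direction in all 4 cell lines, against 7.38% of islands tested. This was the *Hoxa11* island, lower at day 2.5, with changes of -0.58 and -0.92 points in wt lines 1 and 2 and of -0.40 and -3.55 in matΔ lines 1 and 2, and fitted differences of -0.75 (95% CI -3.80 to 2.30) in wt and -1.97 (95% CI -5.02 to 1.07) in matΔ cells.

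**Figure D5:**
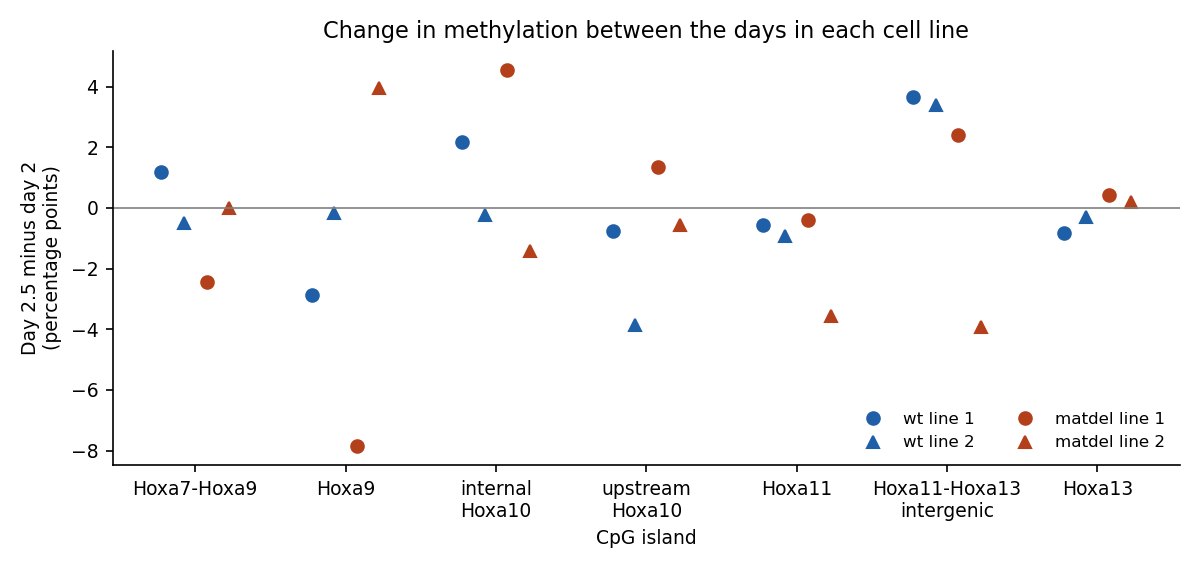
Change in CpG methylation between day 2 and day 2.5 in percentage points (y axis) of each posterior *HoxA* island (x axis) in each of the 4 cell lines, blue for *Smchd1* wt and red for *Smchd1* matΔ (matdel), circles for line 1 and triangles for line 2. Points above 0 are higher at day 2.5. The 4 lines are below 0 together only in the *Hoxa11* island, and the matΔ lines are farthest apart in the *Hoxa9* island (-7.86 and 3.96).

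Whether the genotype difference itself changed between the days was tested as an interaction. By limma 0 of the 7 islands passed (0.0% of islands tested), and 0 had an unadjusted p under 0.05, against 4.67%. The upstream *Hoxa10* island had an interaction of 2.69 points (SE 1.37, 95% CI -0.61 to 5.99, limma adjusted p = 0.867), and the intergenic island one of -4.29 points (SE 3.10, 95% CI -11.7 to 3.16). With 2 lines a group, intervals of this width neither show nor exclude differences of several points in the more methylated islands.

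Among the 20 other *Hox* islands that varied, 4 had an unadjusted p under 0.05 between the genotypes at day 2, against 4.21% of all islands tested. At day 2.5 there was 1, against 4.29%. Of the 20, 0 passed after adjustment by limma in any of the 5 comparisons. The median difference between the genotypes at day 2 was 1.05 points over the 7 posterior *HoxA* islands, -0.63 over the 20, and 0 over all islands tested. The sign over the 7 depended on how it was summarised, since the median over the 7 islands in each library differed by -0.26 points on average. At day 2.5 the median differences were -0.07, -0.04 and 0.

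Regulators of posterior *Hox* genes, Polycomb genes and genes of the DNA methylation machinery were taken as a list of 27 genes, 19 of which had an island with values within 2 kb of a transcript start. Their 21 islands had means from 0.153% to 2.84% with a median of 0.308%. In each of the 5 comparisons by limma, 0 of the 21 had an unadjusted p under 0.05, against 4.07% to 4.67% of all islands tested. Of the 21 islands, 2 had a mean above 1%, against 5 of the 7 posterior *HoxA* islands.

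Across the 8 libraries the posterior *HoxA* islands did not vary together. Of their 21 pairs, 7 had a Pearson r above 0, from -0.68 for the *Hoxa9* and internal *Hoxa10* islands to 0.62 for the upstream *Hoxa10* and *Hoxa13* islands, with a median of -0.18. Of the other *Hox* islands, the 3 most like the average of the 7 were the *Hoxd9* island (r = 0.65), the *Hoxa4* island (r = 0.46) and the *HoxC* island at *Mir615* (r = 0.45), as a description over 8 libraries that share cell lines and days. This order held for Pearson's r alone, since by Spearman's rho the *Hoxc8* island (0.67) and a *Hoxd3* island (0.62) came first.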

How the data were processed

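Genomic DNA of 8 libraries was profiled by RRBS, from 2 *Smchd1* wt and 2 *Smchd1* matΔ male lines at days 2 and 2.5, grouped by genotype, day and line as labelled. The authors trimmed adapters (TrimGalore with Cutadapt 1.15) and diversity bases, mapped with Bismark 0.20.0 to GRCm38.p6, and used SeqMonk to obtain methylation of each island that had enough reads in every library. What was deposited is the percent methylation per island in each library, with no normalisation between libraries and no read counts. How the calls of an island were combined is not stated with the values. Depth is thus unknown, intervals for counting error could not be computed, low values and zeros are imprecise, and single CpGs cannot be seen. The *Hox* table and the table of all islands held the same values in all 8 libraries, and 4 columns of means were not used.

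Islands were annotated with GENCODE transcripts (a start inside the island counts as distance 0), and sequences came from RefSeq's GRCm38.p6. Of 7461 islands with values, 265 with the same value in every library were left out. Percent methylation of the other 7196 was fitted with limma 3.58.1 (R 4.3.3), with 1 mean per group, a trend of variance with the mean, two-sided moderated tests, and p-values adjusted by Benjamini-Hochberg over the 7196 (threshold 0.05). Differences are matΔ minus wt or day 2.5 minus day 2, in percentage points. SD is over libraries. The members, the named islands (every island on chromosome 6 from 52.22 Mb, with other *Hox* sets as ranges and counts and the 3 islands of highest Pearson r) and the gene list were chosen with earlier results of these data known. Line numbers pair the days, since each line was sampled at both, and the difference between the lines at day 2 correlated with that at day 2.5 across islands with r = -0.06 in wt and 0.20 in matΔ cells. The fit had no replicate block. Alternatives were the log2 scale, a filter at 1%, scaling, robust moderation, fewer libraries and the block.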

Additional observations from a re-analysis of the deposited data

Results flagged for a closer look

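In the *Hoxa13* island the change between the days had opposite signs in the genotypes. It was lower at day 2.5 in both *Smchd1* wt lines, by 0.81 and 0.29 points (changes of -0.81 and -0.29), and higher in both *Smchd1* matΔ lines, with changes of 0.44 and 0.20. The difference itself was tested as the interaction in limma, and was 0.87 points (SE 0.44, 95% CI -0.18 to 1.92, unadjusted p = 0.0893, adjusted p = 0.867), so it did not pass. All its values were at or below 1.05%. The same pattern, with both lines of each genotype changing in opposite directions, was present in 467 of 7196 islands tested (6.49%) and in 1 of the 7 posterior *HoxA* islands. Without 1 library the interaction ran from 0.71 to 1.03 points, in the same direction each time, and its limma unadjusted p was 0.0391 without wt line 2 at day 2. Groups of 2 libraries are too small for the check of a single outlying value.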

How the results depend on the processing

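In all fits other than those leaving out a library, 0 islands passed in any of the 5 comparisons, including with the replicate block, which moved the count at an unadjusted p under 0.05 to 276 at day 2 and 275 at day 2.5 for the genotypes (r of line differences between genotypes 0.04 and -0.02, the lines sharing only a number) and to 227 in wt and 263 in matΔ between the days, and changed no call after adjustment. At an unadjusted p under 0.05 the block left 1 of the 2 posterior *HoxA* islands at day 2. Leaving out a library, which leaves a lone line assumed to vary like the others, gave from 0 to 95 islands for the genotypes at day 2, 0 to 121 at day 2.5, 0 to 118 between days in wt, 0 to 98 in matΔ and 0 to 117 for the interaction. Of these 1693 calls over 40 fits, 1541 were islands with no spread left within groups. The 7 posterior *HoxA* islands passed in 0 of 473 alternative estimates of their differences. Of these estimates 24 were reversed and 449 were not, with estimates of 0 counted among the 449. Many of the 449 could not reverse. Robust moderation, the block, the filter at 1% and the fit of only the 4 libraries compared left the fitted difference as it was. So did leaving out a library of a group not compared.

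Without 1 library, 16 of 35 fitted differences changed direction. At day 2 between the genotypes the ranges were -1.14 to 1.30 for the *Hoxa7*-*Hoxa9*, -0.95 to 3.26 for the *Hoxa11* and -0.38 to 5.63 for the intergenic island. At day 2.5 they were -2.84 to 6.63 (*Hoxa9*), -1.19 to 4.48 (internal *Hoxa10*), -1.76 to 0.38 (upstream *Hoxa10*) and -0.60 to 0.46 (*Hoxa11*). Between days in wt the range was -0.78 to 1.49 (*Hoxa7*-*Hoxa9*). In matΔ they were -6.69 to 2.78 (*Hoxa9*), -1.27 to 4.40 (internal *Hoxa10*), -0.68 to 1.46 (upstream *Hoxa10*), -4.08 to 0.13 (*Hoxa11*) and -3.78 to 2.24 (intergenic). For the interaction they were -5.18 to 4.29 (*Hoxa9*), -2.25 to 3.43 (internal *Hoxa10*) and -3.33 to 0.88 (*Hoxa11*). Scaling libraries to 1 mean gave -0.036 for the *Hoxa7*-*Hoxa9* genotype difference at day 2 and 0.12 for the *Hoxa9* interaction, and the log2 scale gave -0.52 for the internal *Hoxa10* interaction.

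The genotype difference of the average over the 7 islands was 0.44 points at day 2 (0.03 to 0.86 without 1 library) and -0.04 at day 2.5 (-0.21 to 0.13). With the median over islands it was -0.26 and -0.94, and with the 5 islands within 2 kb of a *Hoxa9* to *Hoxa13* start 0.08 and 0.58. With these 5 the day difference in wt was -0.83, against -0.04. The cause was not tested. By Spearman's rho, likeness was 0.51 for *Hoxd9*, 0.36 for *Hoxa4* and 0.11 for the *Mir615* island, and other islands, at *Hoxc8* (0.67) and *Hoxd3* (0.62), ranked first and second. The filter at 1% removed the *Hoxa13* and *Hoxa7*-*Hoxa9* islands, and a coverage minimum could not be varied.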
